A study of Mus musculus with 10 samples.

Results

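The genes described here are the 7 insulin-like growth factor (IGF) binding protein genes of the mouse, Igfbp1 to Igfbp7, taken by name from 2 tables of pancreatic tumour expression. All 7 were among the 23924 usable gene symbols of each table. RNA had been sequenced from 10 tumours that grew in the pancreas of athymic nude mice, hosts that lack a thymus. The tumours were orthotopic transplants of the models labelled KrasT and MycT. There were 3 untreated KrasT tumours (0 days of doxycycline), 3 KrasT tumours from mice given doxycycline, 2 untreated MycT tumours (0 days) and 2 MycT tumours from mice given doxycycline. The drug was given for 2 weeks (14 days) in drinking water, at 100 ug/ml with 2.5% sucrose. The labels do not describe the transgenes, the promoters that drive them or the age of the mice, and name no sucrose for untreated hosts, so sucrose, the drug itself and a switched transgene cannot be told apart. The tissue was whole tumour, so each value sums over tumour and other cells, and fewer cells of a type cannot be told apart from less RNA per cell. Each tumour has its own animal number in the labels, but the number on 1 untreated MycT column is in none of the labels. It was used as an untreated MycT library and is called the unnumbered library below.

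IGF binding proteins are secreted proteins that hold the growth factors IGF-I and IGF-II outside cells. They lengthen the life of the factors in blood and tissue fluid, keep them from the receptor Igf1r, or deliver them to it once proteases have cut the binding protein. In solid tumours the binding proteins are made by cancer cells, fibroblasts and vessels in different mixtures, and several also act on matrix and on cells without binding a growth factor. Igfbp3 and Igfbp5 code for proteins that can join a large complex in serum with the acid-labile subunit Igfals. Igfbp4 codes for a small binding protein that is cut by the protease Pappa, and Igfbp6 for one that prefers IGF-II. Igfbp7 codes for a distant relative that binds IGF weakly and is abundant in vessel walls and matrix. Igfbp1 and Igfbp2 are best known from liver and serum, where they follow insulin and feeding.

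Promoter windows, the 250 bases before the annotated start, are printed for the genes that later results turn on. They are Igfbp5, Igfbp6 and Igfbp7, which rose in KrasT tumours, Igfbp3, whose values went the other way, and Igfbp2, which was highest in 1 MycT tumour. They come from RefSeq on GRCm38.p6, whereas the expression values were made on mm9, and each runs 5′ to 3′ on the strand of its gene. Capitals mark letters found by an exact search on both strands. The windows are chr1:72824230-72824479 (plus strand) for Igfbp2, chr11:7213924-7214173 (minus) for Igfbp3, chr1:72874866-72875115 (minus) for Igfbp5, chr15:102143936-102144185 (plus) for Igfbp6 and chr5:77408046-77408295 (minus) for Igfbp7.
Igfbp2: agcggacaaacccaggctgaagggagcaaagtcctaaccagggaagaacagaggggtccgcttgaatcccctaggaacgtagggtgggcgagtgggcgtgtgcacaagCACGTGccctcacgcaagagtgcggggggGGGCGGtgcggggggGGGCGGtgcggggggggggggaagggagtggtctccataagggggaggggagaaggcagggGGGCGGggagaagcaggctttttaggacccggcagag
Igfbp3: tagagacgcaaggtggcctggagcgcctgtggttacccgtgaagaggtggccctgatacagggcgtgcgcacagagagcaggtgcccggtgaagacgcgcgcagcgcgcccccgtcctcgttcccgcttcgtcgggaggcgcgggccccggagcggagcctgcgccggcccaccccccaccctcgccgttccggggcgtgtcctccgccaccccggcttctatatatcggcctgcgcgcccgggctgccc
Igfbp5: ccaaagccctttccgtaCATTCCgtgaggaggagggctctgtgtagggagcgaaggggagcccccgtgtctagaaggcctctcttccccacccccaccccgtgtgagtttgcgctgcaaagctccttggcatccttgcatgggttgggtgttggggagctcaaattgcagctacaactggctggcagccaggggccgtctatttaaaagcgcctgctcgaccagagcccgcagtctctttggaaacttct
Igfbp6: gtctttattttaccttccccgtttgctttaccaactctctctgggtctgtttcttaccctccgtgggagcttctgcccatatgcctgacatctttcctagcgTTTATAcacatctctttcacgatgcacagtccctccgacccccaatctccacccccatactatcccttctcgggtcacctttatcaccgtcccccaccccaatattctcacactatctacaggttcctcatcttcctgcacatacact
Igfbp7: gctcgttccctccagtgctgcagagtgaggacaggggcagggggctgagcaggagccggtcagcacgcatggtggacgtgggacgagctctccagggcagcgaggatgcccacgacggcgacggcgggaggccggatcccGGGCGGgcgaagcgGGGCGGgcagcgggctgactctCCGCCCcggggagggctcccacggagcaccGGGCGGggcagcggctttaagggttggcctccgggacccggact

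The search covered the MYC and MAX E-box (CACGTG), the TATA box (TATAAA or TTTATA), the GC box (GGGCGG or CCGCCC), the AP-1 site (TGANTCA), the TEAD site (GGAATG or CATTCC) and the insulin response core (CAAAACA or TGTTTTG). Igfbp2 held the E-box at bases -142 to -137 from its start, and 6.04% of 32536 promoter windows of the same length held it. It also held 3 GC boxes, and Igfbp7 held 4, letters found in 33.0% of windows. Igfbp5 held CATTCC at -233 to -228 (12.6% of windows) and Igfbp6 held TTTATA at -148 to -143 (12.3%). Igfbp3 held none of these letters. The 3 genes that rose in KrasT tumours therefore had no searched motif in common. Their G and C content was 58.8% for Igfbp5, 49.6% for Igfbp6 and 74.0% for Igfbp7, against a median of 52.4% over all windows. These matches are letters in a window and no evidence of binding. In the RefSeq gene order, Igfbp1 and Igfbp3 are next to each other, and so are Igfbp2 and Igfbp5.

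Expression was given as FPKM, fragments scaled to gene length and library size, so levels of different genes can be set side by side within a library. Relative depth was taken as the commonest ratio between the values of low genes in a library and in 1 library of the same table. It was 0.755 to 1.187 in KrasT and 0.623 to 1.0 in MycT. That ratio was held by 157 to 238 of the 1392 to 1997 low genes compared per library. Some libraries stood apart. KrasT untreated replicate 1 was less like its group (Pearson r over genes 0.823 and 0.839) than the other pair were like each other (0.966), and its Epcam was 7.22 FPKM against 375 and 530.2. The untreated MycT libraries had an r of 0.874, with summed FPKM of 12 ductal and tumour epithelium markers of 508 in replicate 2 and 2288 in the unnumbered library. The ribosomal precursor Rn45s was at 17239 FPKM in KrasT doxycycline replicate 1 and 20880 in MycT doxycycline replicate 2, and at most 2231 elsewhere. The epithelial keratins Krt8, Krt18 and Krt19 were detected in all 10 libraries. Markers of islet, acinar tissue, fat and muscle were unevenly spread over libraries, with values given where they touch a result.

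In KrasT tumours the makeup of the family differed with doxycycline. Igfbp5, Igfbp6 and Igfbp7 rose, with means 6.70, 19.2 and 3.67 times those of untreated tumours. Igfbp3 was lower in all 3 treated tumours than in any untreated tumour, though its change did not pass the test, and Igfbp4, which was high throughout, did not pass either. Of 6 members tested, 3 were called higher and 0 lower. Genes were tested with limma on log2(FPKM + 1) and called at an adjusted p under 0.05 over all genes kept. By that rule 16.7% of 12696 tested genes were called, 8.46% higher and 8.25% lower. The median log2 change was 1.64 over the 6 members and -0.10 over all genes tested. Igfbp1 was too low to be tested. In the joint fit of all 10 libraries, whose spread is shared by both models, only Igfbp6 of the 6 was called higher in KrasT, where 7.53% of genes were. The limma adjusted p there was 0.0501 for Igfbp5 and 0.101 for Igfbp7. Without doxycycline replicate 3, limma called 0 of 6 members and 120 genes in all (0.945%).

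**Figure D1:**
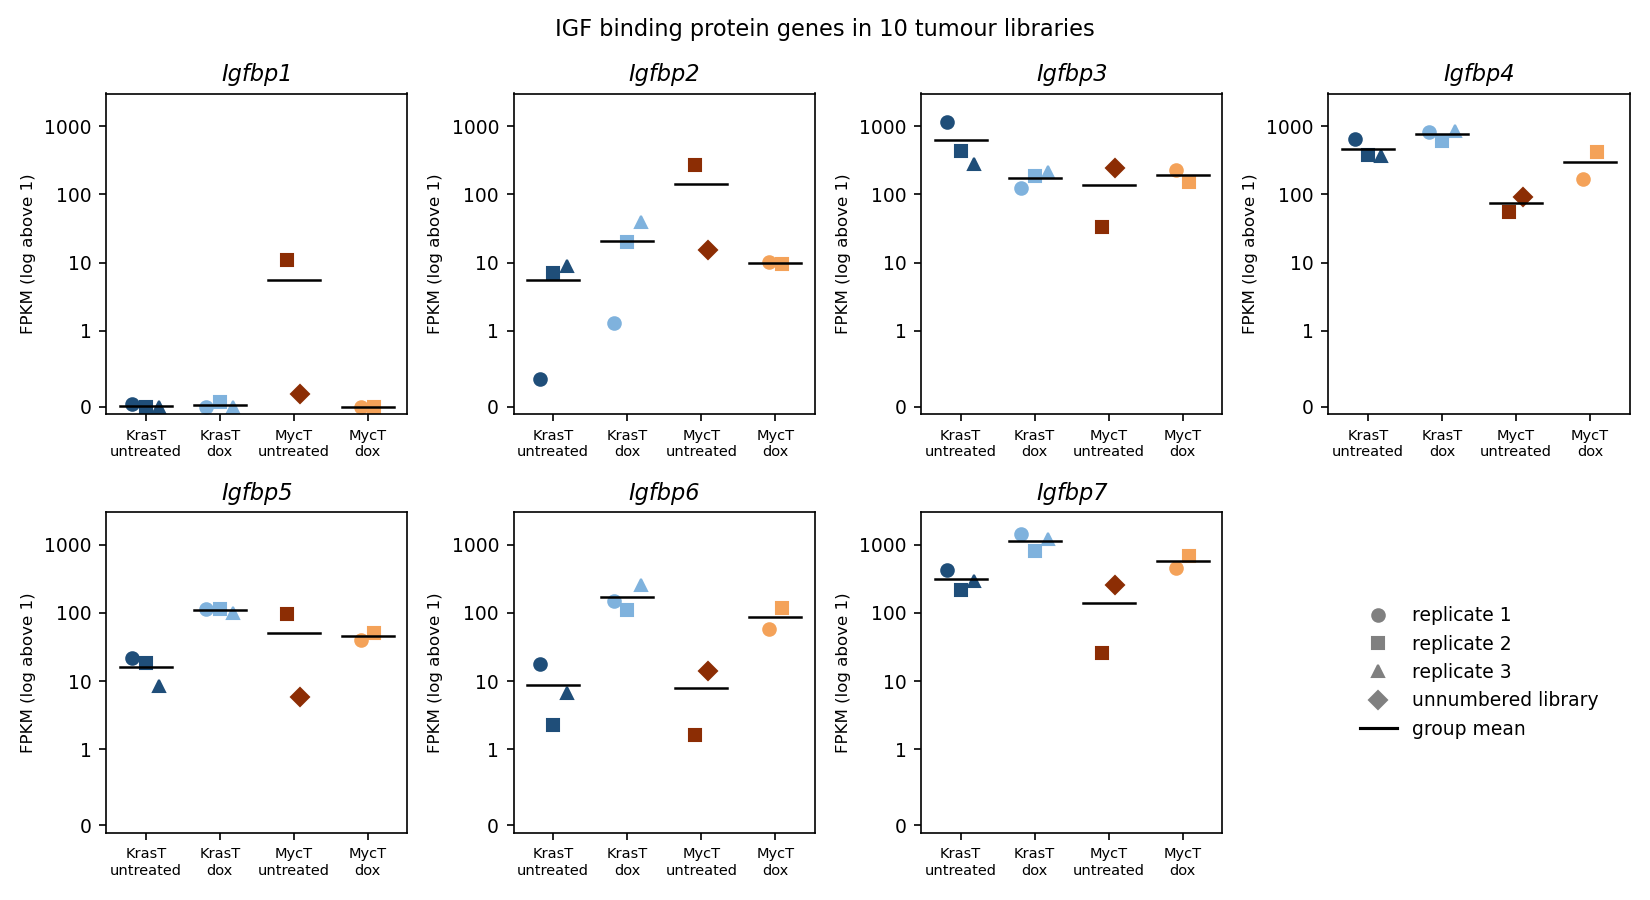
FPKM of each IGF binding protein gene (vertical axis, logarithmic above 1 FPKM) in the 10 tumour libraries, by model and treatment (dox, doxycycline). Each symbol is 1 library and the bar is the group mean. In KrasT tumours the untreated and doxycycline libraries of Igfbp5, Igfbp6 and Igfbp7 are separate, while the untreated MycT libraries lie far apart for Igfbp2, Igfbp5 and Igfbp7.

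Igfbp5, which codes for a matrix-bound binding protein that can also carry IGF in serum, was at 21.8, 18.5 and 8.43 FPKM in untreated KrasT replicates 1, 2 and 3. After doxycycline it was at 115, 114 and 98.0 FPKM. The groups did not overlap, and the treated libraries were within 1.17-fold of each other. The means were 16.3 ± 6.98 and 109 ± 9.43 FPKM (SD, n = 3 each). On the log2 scale the rise was 2.76 ± 0.36 (SE), and the limma adjusted p was 0.00978. Log2 changes here are of FPKM + 1, doxycycline minus untreated, a scale that understates changes of low genes. Leaving out 1 library at a time kept the call in 5 of 6 fits, and it was lost without doxycycline replicate 3 (limma adjusted p = 0.0543).

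Igfbp6, the member that prefers IGF-II, had the largest change of the 6. Untreated replicates 1, 2 and 3 had 17.5, 2.26 and 6.59 FPKM, and the doxycycline replicates 147, 108 and 252 FPKM. The lowest treated tumour was thus well above the highest untreated one, although untreated tumours spanned 7.77-fold. The means were 8.79 ± 7.87 and 169 ± 74.4 FPKM (SD, n = 3 each), or 4.37 ± 0.65 (SE) on the log2 scale, at a limma adjusted p of 0.0122. The call held in 4 of 6 fits that left out 1 library. It was lost without untreated replicate 3 (limma adjusted p = 0.0643) and without doxycycline replicate 3 (0.0645), the tumour with the highest value.

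Igfbp7, the weak IGF binder of vessel walls and matrix, was already abundant, at 422, 218 and 290.3 FPKM in untreated replicates 1, 2 and 3. With doxycycline it reached 1410.5, 799 and 1209 FPKM, the highest level of any member. The groups did not overlap. The means were 310.1 ± 103 and 1139 ± 312 FPKM (SD, n = 3 each), and the log2 change was 1.89 ± 0.35 (SE) at a limma adjusted p of 0.0196. This call was the least stable of the 3, held in 2 of 6 fits that left out 1 library. It was lost without untreated replicates 2 or 3 and without doxycycline replicates 1 or 3, with limma adjusted p values of 0.0694, 0.0823, 0.0514 and 0.0917 in that order.

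Igfbp3, the main IGF carrier of adult serum, had the highest mean of the members in untreated KrasT tumours. It was at 1143, 429 and 282 FPKM in untreated replicates 1, 2 and 3 and at 124, 184 and 213 FPKM after doxycycline. All treated libraries were below all untreated ones, and untreated replicate 1 was far above the rest. Igfbp3 was the top member in 2 of 3 untreated tumours and came after Igfbp4 in replicate 3. Without replicate 1 its untreated mean was 356 FPKM, against 371 for Igfbp4. The means were 618 ± 461 and 174 ± 45.5 FPKM (SD, n = 3 each), and the log2 change was -1.61 ± 0.53 (SE) at a limma adjusted p of 0.0810. Without untreated replicate 1 the change was -1.03 and the limma adjusted p 0.0533. Thus 3 members were higher and 1 was lower without overlap between groups, where 16.8% and 23.0% of all tested genes were.

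Igfbp4, whose product inhibits IGF action until it is cut, was the steadiest of the abundant members. It was at 657, 372 and 370.3 FPKM in untreated replicates 1, 2 and 3, and at 833, 613 and 849 FPKM after doxycycline. Untreated replicate 1 was above treated replicate 2, so the groups overlapped. Its log2 change of 0.75 ± 0.32 (SE) did not pass, at a limma adjusted p of 0.148. Without untreated replicate 1, the library that stood apart, it was 1.02 with a limma adjusted p of 0.0269, and 4 of 6 members were then called higher. In that fit 15.6% of all genes were called higher, against 8.46% with all libraries.

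Igfbp2, a binding protein common in fetal tissue and serum, stayed low and uneven. The values were 0.366, 7.03 and 9.03 FPKM in untreated replicates 1, 2 and 3 and 1.32, 20.3 and 39.8 FPKM in the doxycycline replicates. Treated libraries spanned 30.2-fold and overlapped the untreated ones. A log2 change of 1.40 ± 1.2 (SE) was not called, at a limma adjusted p of 0.453, and on leaving out 1 library it went from 0.49 without untreated replicate 1 to 2.62 without doxycycline replicate 1, with no call. Igfbp1, an insulin-regulated product of liver, was at 0.0392 FPKM in untreated replicate 1, at 0.0660 in doxycycline replicate 2 and listed at 0 in the other 4 KrasT libraries.

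**Figure D2:**
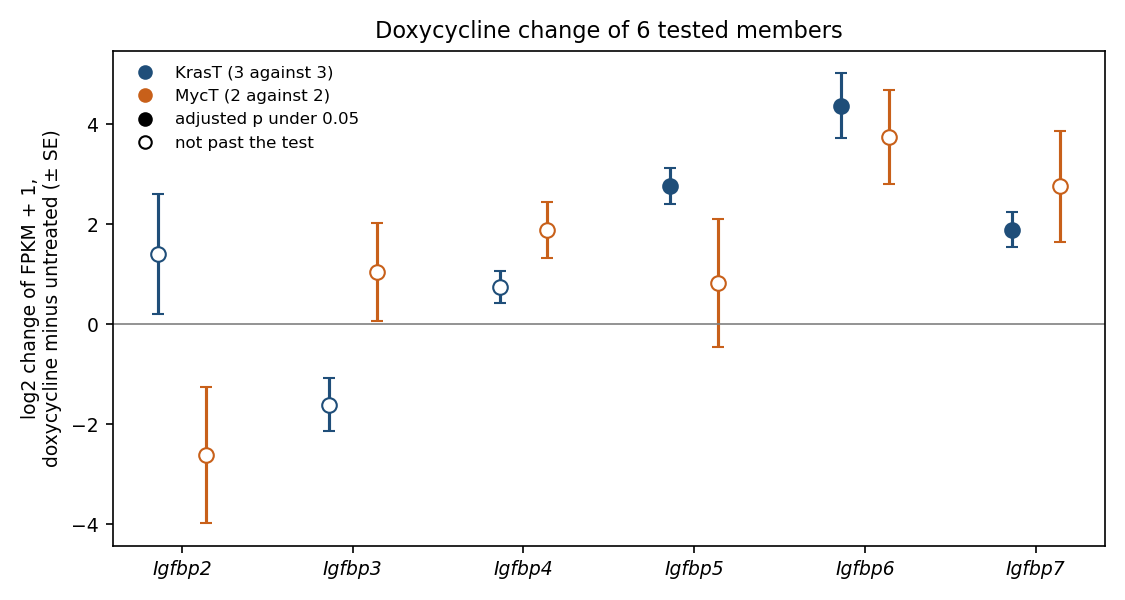
Log2 change of FPKM + 1, doxycycline minus untreated (vertical axis), for the 6 members tested, with limma standard errors as bars. KrasT is 3 libraries against 3 and MycT 2 against 2. Filled symbols have an adjusted p under 0.05, which only Igfbp5, Igfbp6 and Igfbp7 reach, in KrasT.

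The order of mean levels also differed between the treatments. In untreated KrasT tumours the order of means was Igfbp3, Igfbp4, Igfbp7, Igfbp5, Igfbp6, Igfbp2 and Igfbp1. The top 3 were separated from the rest without overlap, but the ranges of Igfbp3 and Igfbp4, and of Igfbp4 and Igfbp7, overlapped, as did those of Igfbp5 and Igfbp6 and of Igfbp6 and Igfbp2. After doxycycline the order was Igfbp7, Igfbp4, Igfbp3, Igfbp6, Igfbp5, Igfbp2 and Igfbp1. Igfbp7 was above Igfbp4 in 3 of 3 treated tumours although their ranges overlapped. Igfbp3, Igfbp6 and Igfbp5 followed with overlapping neighbours, and Igfbp3 was above Igfbp6 in 1 of the 3.

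Summed over the 7 genes, untreated KrasT replicates 1, 2 and 3 had 2262, 1047 and 967 FPKM, and treated ones 2629.7, 1838 and 2660.0 FPKM. The sums overlapped, because untreated replicate 1 was above treated replicate 2. The shares within the sum did not overlap for Igfbp3, Igfbp5, Igfbp6 or Igfbp7. Igfbp3 made up 50.6%, 40.9% and 29.2% of the sum in untreated replicates 1, 2 and 3, and 4.71%, 10.03% and 8.0% after doxycycline. Igfbp7 made up 18.6%, 20.8% and 30.03% untreated and 53.6%, 43.4% and 45.4% after doxycycline. The share of Igfbp5 was 0.872% to 1.77% untreated and 3.685% to 6.20% treated. That of Igfbp6 was 0.215% to 0.775% untreated and 5.58% to 9.47% treated. Igfbp4 held a share of 29.0% to 38.3% in all 6 KrasT tumours.

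**Figure D3:**
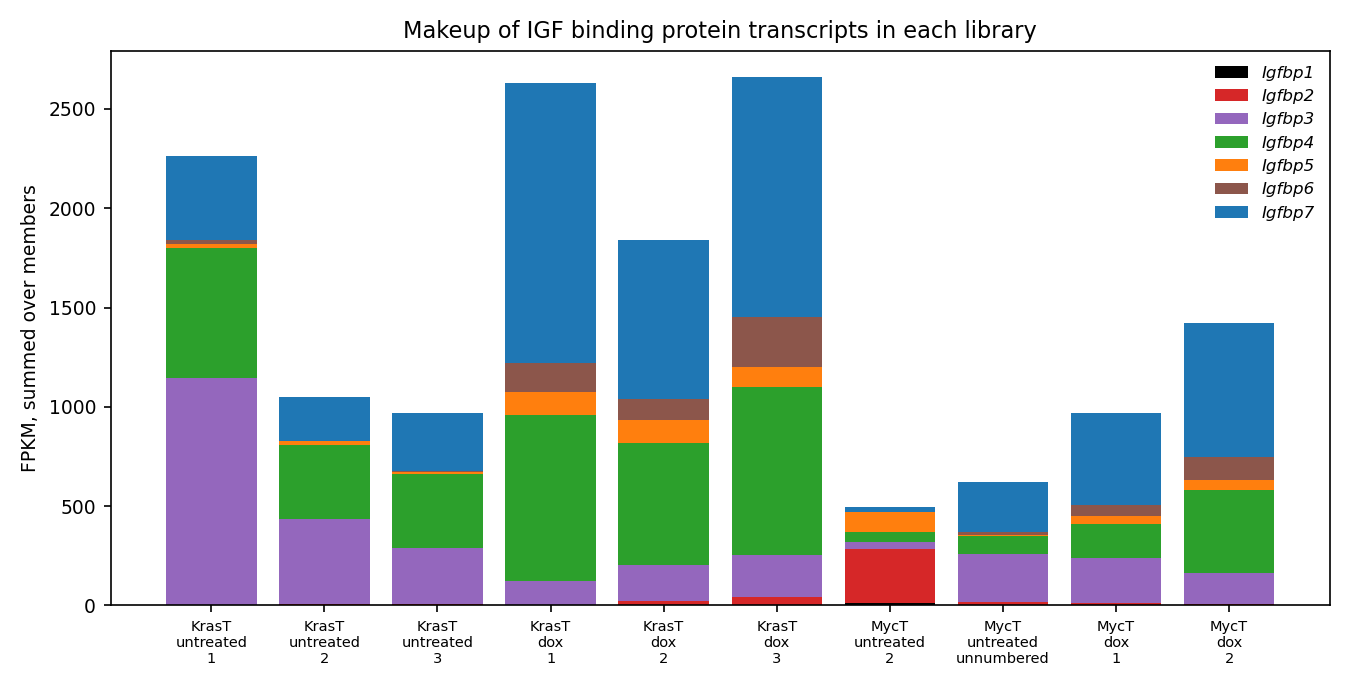
Summed FPKM of the 7 IGF binding protein genes in each library (vertical axis), divided by gene. Igfbp3 and Igfbp4 fill most of each untreated KrasT bar, Igfbp7 and Igfbp4 most of each bar after doxycycline, and Igfbp2 makes up 55.0% of the bar of untreated MycT replicate 2.

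In MycT tumours the doxycycline libraries had more Igfbp4, Igfbp6 and Igfbp7 than either untreated library, but no member passed the test. With 2 libraries a group, limma called 5 of 12834 genes, or 0.039%, and 0 of 6 members. At an unadjusted p under 0.05 there were 33.4% of all genes and 2 of 6 members, Igfbp4 and Igfbp6. In the joint fit Igfbp4 and Igfbp6 were called higher, where 6.61% of genes were. Igfbp1 and Igfbp2 were lower in both treated libraries. Without overlap between groups, 3 of the 6 tested members were higher and only Igfbp2 was lower, beside 31.9% and 32.8% of tested genes. The separation of Igfbp1, which was not tested, rested on 0.166 FPKM in the unnumbered library against 0 in the treated ones.

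Igfbp6 was at 1.62 FPKM in untreated MycT replicate 2 and 14.1 in the unnumbered library, and at 57.6 and 119 FPKM in doxycycline replicates 1 and 2. Both treated tumours were above both untreated ones. The log2 change was 3.74 ± 0.94 (SE). Its limma adjusted p was 0.0829 within MycT and 0.0295 in the joint fit. Without untreated replicate 2 the change was 2.48, and without the unnumbered library it was 5.0. Each of these fits kept 1 untreated tumour, so no test is given for them.

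Igfbp7 was at 25.6 FPKM in untreated replicate 2 and 253 in the unnumbered library, and at 460.4 and 673 FPKM after doxycycline. The untreated libraries differed by 9.85-fold, more than the means of the groups did (139 and 567 FPKM). For Igfbp7 the log2 change was 2.76 ± 1.11 (SE), and limma gave an adjusted p of 0.164 within MycT and 0.0573 in the joint fit. It was 1.14 without untreated replicate 2 and 4.39 without the unnumbered library, in fits where the untreated group had no spread of its own.

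Igfbp4 was at 54.9 FPKM in untreated replicate 2 and 92.4 in the unnumbered library, against 171 and 417 FPKM in doxycycline replicates 1 and 2. It was the only member whose untreated libraries lay within 2-fold of each other (1.68-fold). Its log2 change of 1.89 ± 0.56 (SE) had an adjusted p of 0.102 by limma within MycT and 0.0313 in the joint fit. Leaving out 1 library gave 1.25 without doxycycline replicate 2 to 2.53 without doxycycline replicate 1.

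Igfbp5 and Igfbp2 were both high in untreated MycT replicate 2 alone. Igfbp5 was at 95.9 FPKM there, 5.91 in the unnumbered library, and 39.6 and 50.4 after doxycycline. Treated values thus lay between the untreated ones, and the log2 change was 0.82 ± 1.28 (SE) at a limma adjusted p of 0.688. Without the unnumbered library the change was -1.08, and without replicate 2 it was 2.73.

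Igfbp2 was at 272 FPKM in untreated replicate 2 and 15.1 in the unnumbered library, against 10.3 and 9.39 FPKM after doxycycline. That first tumour had 18.1 times the Igfbp2 of its group mate. The log2 change was -2.61 ± 1.36 (SE) at a limma adjusted p of 0.248, and without that tumour it was -0.57. Without the unnumbered library it was -4.66, and either fit left the untreated group with no spread of its own. Igfbp1 was at 11.1 FPKM in the same tumour, at 0.166 in the unnumbered library and listed at 0 in both treated libraries. As only 1 MycT library reached 1 FPKM, Igfbp1 was not tested. The summed FPKM of 8 hepatocyte markers was 7.45 in replicate 2 and 6.24 in the unnumbered library, with 5 of the 8 higher in replicate 2 and 3 lower. Alb was at 3.33 against 0.790 FPKM and Apob at 0.0147 against 2.26. The part of liver RNA in the Igfbp1 level was not tested.

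Igfbp3 was at 33.5 FPKM in untreated replicate 2 and 242 in the unnumbered library, and at 229.8 and 153 FPKM in doxycycline replicates 1 and 2. The groups overlapped. At a limma adjusted p of 0.50 the log2 change was 1.04 ± 0.98 (SE), with -0.37 without replicate 2 and 2.45 without the unnumbered library.

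Across the 2 untreated MycT tumours no pair of neighbours in the order of means was separated. Replicate 2 had Igfbp2 at 55.0% and Igfbp5 at 19.4% of the summed FPKM, whereas the unnumbered library had Igfbp7 at 40.6% and Igfbp3 at 38.9%. After doxycycline both tumours had Igfbp7 first, at 47.6% and 47.4% of the sum. The means after doxycycline had the same order as in KrasT. Within it only Igfbp4 and Igfbp3 overlapped as neighbours, with Igfbp4 above Igfbp3 in 1 of 2 treated MycT tumours. The sum was 495 and 622 FPKM in the untreated libraries and 968 and 1422 in the treated ones.

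**Figure D4:**
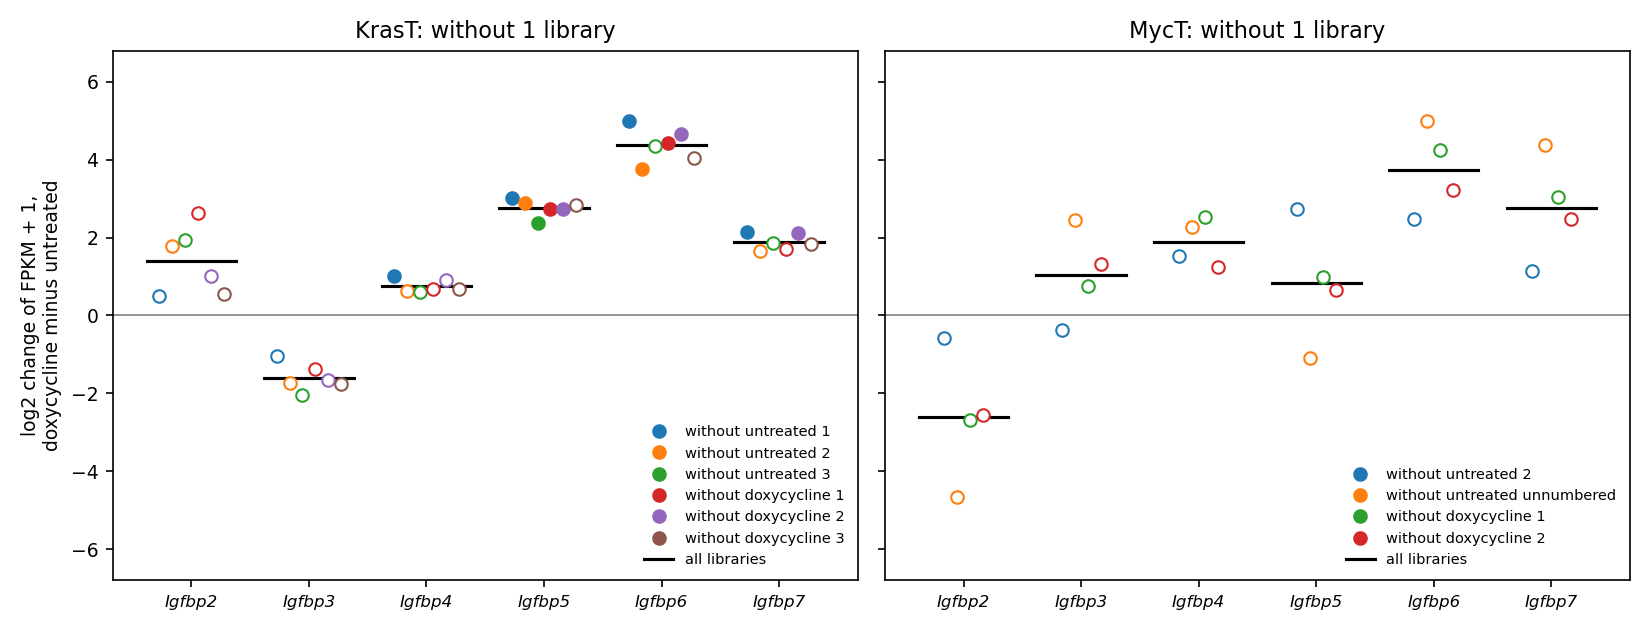
Log2 change of FPKM + 1 (vertical axis) of the 6 tested members when 1 library is left out, by model. Black bars are the values with all libraries, circles the values without the library named by colour, and filled circles have a limma adjusted p under 0.05. In MycT, leaving out untreated replicate 2 or the unnumbered library moves Igfbp2, Igfbp3, Igfbp5 and Igfbp7 most.

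Whether the models differed in their response was tested as the difference of the changes, MycT minus KrasT, over all 10 libraries. Of 14157 genes 0.763% were called, and 0 of 6 members. At an unadjusted p under 0.05 there were 19.4% of genes and 1 member, Igfbp3. Its difference was 2.65 ± 1.15 (SE) at a limma adjusted p of 0.252. The difference was -4.01 ± 2.08 (SE) for Igfbp2, with a limma adjusted p of 0.329, and -1.94 ± 1.28 for Igfbp5, with 0.438. These values turned on the untreated MycT libraries. Without replicate 2 the difference was 1.24 for Igfbp3, -1.97 for Igfbp2 and -0.04 for Igfbp5. Without the unnumbered library it was 4.06 for Igfbp3 (limma adjusted p = 0.0510), -6.06 for Igfbp2 (0.135) and -3.85 for Igfbp5 (0.0218), in a fit that called 4.27% of genes. For Igfbp4, Igfbp6 and Igfbp7 the differences were 1.14 ± 0.63, -0.64 ± 1.23 and 0.88 ± 1.12 (SE), with limma adjusted p values of 0.357, 0.822 and 0.717. Errors of this size leave room for differences of more than 1 log2 unit in either direction for Igfbp6 and Igfbp7.

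A ligand of the family also rose in KrasT tumours. Igf1, which codes for IGF-I, was at 0.843, 1.11 and 1.15 FPKM in untreated KrasT replicates 1, 2 and 3 and at 47.5, 38.9 and 42.1 FPKM after doxycycline. The rise of 4.43 ± 0.24 (SE) on the log2 scale had a limma adjusted p of 0.000982. The summed binding protein FPKM per unit of Igf1 FPKM was 838 to 2683 in untreated tumours and 47.2 to 63.2 in treated ones. In MycT, Igf1 was at 1.59 and 2.13 FPKM in untreated tumours and reached 8.56 and 18.3 FPKM with the drug (limma adjusted p = 0.0698, joint fit 0.00755). The ratio was 311 and 292 untreated and 113 and 77.9 treated. Igf2, the ligand of Igfbp6, was at most 6.56 FPKM in any library and was not called in either model. It was higher in all treated KrasT tumours, by 1.27 ± 0.45 (SE) on the log2 scale (limma adjusted p = 0.0993).

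Of 3 receptors tested, 0 were called in either model, beside 16.7% of genes in KrasT and 0.039% in MycT. In KrasT, Igf1r, the signalling receptor, was lower in all treated tumours than in any untreated one, as were 23.0% of tested genes. Its log2 change there was -0.64 ± 0.27 (SE; limma adjusted p = 0.148). In MycT, Igf1r was at 1.04 and 0.682 FPKM untreated and 5.38 and 3.20 FPKM treated. That log2 change was 1.48 ± 0.39 (SE; limma adjusted p = 0.0869, joint fit 0.0204). The difference, MycT minus KrasT, was 2.13 ± 0.44 (SE; limma adjusted p = 0.0642). Igf2r, which clears IGF-II, and Insr, the insulin receptor, were not called. Igfals, which builds the serum complex with Igfbp3 and Igfbp5, was at most 1.42 FPKM in any library and was too low to be tested in either model.

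Among proteases that cut binding proteins and their inhibitors, 1 of 7 tested in KrasT was called higher and 0 lower. Of all genes tested in KrasT, 8.46% were called higher and 8.25% lower. The protease gene called was Mmp2, a gelatinase that cuts Igfbp3 and Igfbp5 among many substrates. It went from 28.3, 23.4 and 38.0 FPKM to 545, 145 and 339 FPKM (log2 change 3.31 ± 0.49 SE, limma adjusted p = 0.0123). Pappa, the Igfbp4 protease, was at most 0.797 FPKM in any library and Pappa2, which cuts Igfbp3 and Igfbp5, at most 1.05 FPKM, so neither was tested. Stc1, which codes for the Pappa inhibitor stanniocalcin, was at 3.97, 87.6 and 100.3 FPKM in untreated KrasT replicates 1, 2 and 3 and at 4.204, 2.37 and 1.83 FPKM after doxycycline. Untreated replicate 1 was thus as low as the treated libraries, and the limma adjusted p was 0.0899. Htra1, Adam12, Adamts1, Mmp7 and Stc2 were not called. In MycT 0 of 6 were called, beside 0.039% of all genes. In the joint fit Mmp2 was called higher (4.21 ± 0.91 SE, limma adjusted p = 0.0171), as were 6.61% of genes.

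Of 8 tested genes for proteins with an IGF-binding-like domain, 2 were called higher in KrasT and 0 lower, beside 8.46% and 8.25% of genes. Wisp2, a secreted matricellular protein, was at 1.68 FPKM in untreated replicate 1, listed at 0 in the other 2, and at 24.9, 18.2 and 8.52 FPKM after doxycycline (limma adjusted p = 0.0125). Nov, another member of that family, rose by 2.39 ± 0.54 (SE) on the log2 scale (limma adjusted p = 0.0310). Ctgf, the most abundant of the list, was at 195 to 443 FPKM untreated and 228 to 286 FPKM treated, a log2 change of -0.20 ± 0.34 (SE; limma adjusted p = 0.714). Wisp1, Esm1, Cyr61, Kazald1 and Crim1 were not called, and Igfbpl1 was too low to be tested. In MycT 0 of 8 were called, beside 0.039% of all genes. The joint fit called Wisp1, Wisp2 and Crim1 higher in MycT, as it did 6.61% of genes.

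Among adaptors of insulin and IGF signalling, 2 of 5 tested were called higher in KrasT and 0 lower, beside 8.46% and 8.25% of genes. Grb10, an adaptor that dampens signalling from both receptors, went from 2.78, 1.46 and 1.497 FPKM to 20.7, 13.4 and 21.9 FPKM (limma adjusted p = 0.00753). Its relative Grb14 rose by 1.72 ± 0.37 (SE) on the log2 scale (limma adjusted p = 0.0280). Irs1, the docking protein below Igf1r, had a value of 1.08 ± 0.30 (SE) on that scale (limma adjusted p = 0.0517). In MycT 0 of 4 were called, beside 0.039% of all genes. Grb14 went the other way there, at 15.5 FPKM in untreated replicate 2, 8.10 in the unnumbered library, and 2.75 and 4.68 after doxycycline. That log2 change was -1.41 ± 0.46 (SE; limma adjusted p = 0.120), and 32.8% of tested genes were lower without overlap. The difference for Grb14, MycT minus KrasT, was -3.13 ± 0.62 (SE; limma adjusted p = 0.0626). Grb10 was at 68.0 FPKM in untreated MycT replicate 2, the tumour with high Igfbp2 and Igfbp5, and at 4.62 to 12.1 FPKM in the other 3 MycT libraries. Shc1 and Irs2 were not called in KrasT, and Irs4 was at or near 0 in all 10 libraries.

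Markers of stromal cells moved with the rises. Of all genes tested in KrasT, 8.46% were called higher and 8.25% lower. There, 11 of 14 fibroblast markers were called higher and 0 lower, led by Dpt (log2 change 6.40) and Clec3b (5.55). Fap, Postn and Thy1 were not called, with log2 changes of 1.48, 1.27 and 1.19 and overlapping groups. The marker lists were chosen with earlier results of these data known, so these counts are no independent test. The summed FPKM of the 14 fibroblast markers was 342 to 888 in untreated and 4408 to 9913 in treated tumours. No fibroblast marker was listed at 0 in any library. Of 12 endothelial markers 10 were called higher, with sums of 36.7 to 61.1 and 142 to 340.1 FPKM, and of 10 mural cell markers 5, with 49.3 to 208 and 273 to 385 FPKM. Treated KrasT replicate 1 had the most fibroblast marker FPKM and the most Igfbp7, and replicate 3 the most Igfbp6 but not the most fibroblast markers. Of 12 ductal and tumour epithelium markers 2 were called lower, Krt18 (-3.60) and Krt8 (-3.09), with sums of 5349 to 23407 untreated and 4513 to 7533 treated. Spp1, which tumour cells and macrophages both make, held 3783 to 5604 FPKM of the treated sums. With all 12 markers the sums overlapped. Without Spp1, a choice made after seeing the data, they were 2388 to 18998 untreated and 303 to 1929 treated, with no overlap. The part that these cell types had in the binding protein changes was not tested.

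Other tissue was present unevenly. Summed markers of adipocytes were 3359.7 FPKM in treated KrasT replicate 1 against 201 and 206 in the other treated KrasT tumours. Acinar markers were at 12564 FPKM in replicate 3, and islet markers at 7535 in replicate 1, 44.7 in replicate 2 and 2545 in replicate 3. Skeletal muscle markers were at 6719.6 FPKM in treated replicate 2, 327 in treated replicate 3 and 76.4 in treated replicate 1, and at 517 in untreated replicate 1. Igfbp5 differed by at most 1.17-fold and Igfbp6 by 2.33-fold among these 3 tumours. In MycT the fibroblast sums were 48.9 and 493 FPKM untreated and 1854 and 2735 treated. They were lowest in untreated replicate 2. So were the endothelial, mural, mesothelial, macrophage, lymphocyte and ductal and tumour epithelium sums. Igfbp3, Igfbp4, Igfbp6 and Igfbp7 were lowest in that library too, while Igfbp1, Igfbp2 and Igfbp5 were highest in it. All 14 fibroblast markers were higher without overlap in treated MycT tumours, as were 31.9% of tested genes. Limma called 0 of the 14 within MycT, beside 0.039% of genes. In the joint fit it called 8 higher, beside 6.61% of genes. Macrophage markers were called higher in KrasT for 3 of 10, mesothelial for 2 of 4 tested, islet for 2 of 7, adipocyte for 3 of 6, hepatocyte for 2 of 3 and lymphocyte for 1 of 4, and acinar and skeletal muscle markers for 0 of 6 and 0 of 7. None of these lists had a marker called lower. The hepatocyte markers called were Ttr and Alb, while Apob had a log2 change of -0.71 ± 0.75 (SE; limma adjusted p = 0.545). Ttr alone was at 41.7, 125 and 136 FPKM in treated KrasT replicates 1, 2 and 3, of hepatocyte sums of 55.4, 134 and 141. Summed macrophage markers were 313 to 1574 FPKM in untreated and 1861 to 6798 in treated KrasT tumours. Of all genes tested in KrasT, 8.46% were called higher and 8.25% lower. The mesothelial list was split, with Wt1 and Upk3b called higher and Msln, its most abundant gene, at -2.51 ± 1.06 (SE) on the log2 scale (limma adjusted p = 0.147). The summed mesothelial FPKM was 195 to 1299 untreated and 39.5 to 261 treated, and Msln held most of it in each KrasT library. Msln alone was at 193, 1295 and 666 FPKM in untreated replicates 1, 2 and 3 and at 20.1, 201 and 214 FPKM in treated ones. The other 3 mesothelial markers tested had positive log2 changes, so the sum gives the direction of Msln and not of the list.

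**Figure D5:**
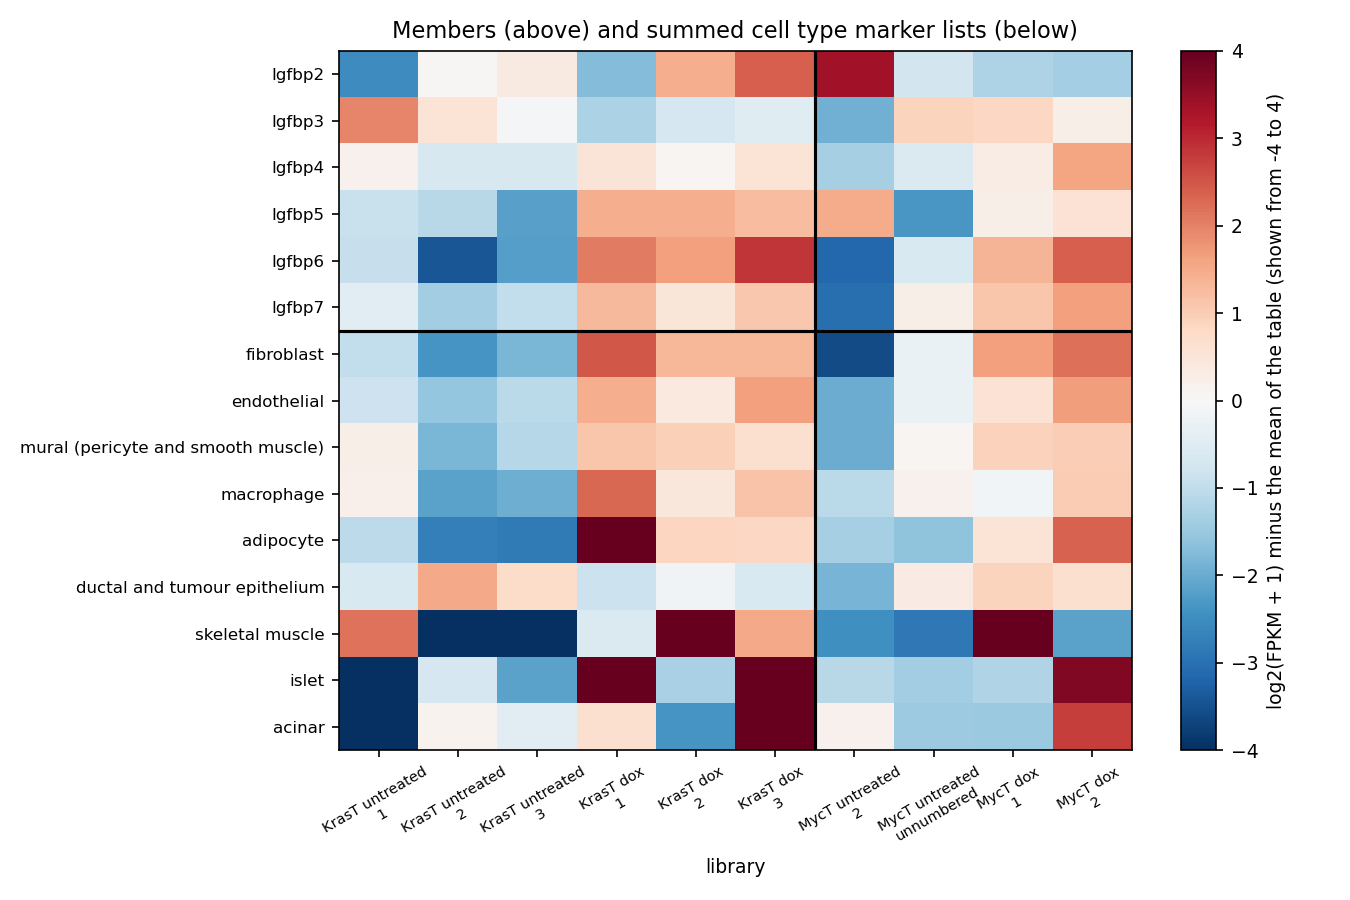
Members (upper rows) and summed FPKM of cell type marker lists (lower rows) in the 10 libraries, as log2(FPKM + 1) minus the mean over the libraries of the same table. Red is above and blue below that mean, shown from -4 to 4. In KrasT, Igfbp5, Igfbp6 and Igfbp7 are red in the 3 treated libraries and blue in the untreated ones. Of the marker rows shown, the fibroblast, endothelial and adipocyte rows have this pattern and the others do not. The mural and macrophage sums are also higher in every treated than in every untreated KrasT library, but untreated replicate 1 lies above their row means. The hepatocyte and lymphocyte lists, which are not shown, have the red and blue pattern of Igfbp5 too, and most of the treated KrasT hepatocyte sum is Ttr. In MycT, Igfbp3, Igfbp4, Igfbp6 and Igfbp7 are lowest in untreated replicate 2. The fibroblast, endothelial, mural, macrophage and ductal and tumour epithelium rows are lowest there as well.

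The members did not share 1 pattern over the libraries. Likeness was measured as the root mean square difference, over 10 libraries, of log2(FPKM + 1) centred on the mean of each table. Among pairs of members Igfbp4 and Igfbp7 were closest, at 0.793, followed by Igfbp6 and Igfbp7 at 1.11, and Igfbp2 and Igfbp6 were farthest, at 3.15. The neighbours Igfbp2 and Igfbp5 were 1.84 apart. Of 9855 genes compared, those most like Igfbp7 were Sparc (0.312), Spon1 (0.316) and Ifi27 (0.329). Those most like Igfbp6 were Abi3bp (0.504), Ccdc80 (0.512) and C1s1 (0.555), and those most like Igfbp5 were Mfap2 (0.391), Pcp4l1 (0.415) and Efs (0.444).

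The genes most like Igfbp3 were Tmsb4x (0.294), Has2 (0.354) and S100a10 (0.409), an actin-binding peptide, a hyaluronan synthase and an annexin partner. Those most like Igfbp4 were Fpr2 (0.179), Slc48a1 (0.189) and Samd14 (0.193). The closest to Igfbp2 were Ppp1r1b (0.803), Mia (0.879) and Smim24 (0.977), farther off than for any other member. Ppp1r1b was at 111 FPKM in untreated MycT replicate 2, the library with the most Igfbp2, and at 6.57 in the unnumbered library. Each of these likenesses rests on libraries that also differ in cell makeup, and none was tested.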

How the data were processed

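Whole tumour RNA was sequenced from 10 libraries with an Illumina TruSeq RNA kit, per the labels' protocols. The authors deposited FPKM per gene in 1 table for each model. Per the submitters' processing notes cutadapt, TopHat and the mm9 build were used. Not given in the sources used here are the program behind the FPKM values, its annotation, its use of strand and the read depth. Of 23951 rows per file, 27 whose symbols had become dates were left out.

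Genes with 1 FPKM or more in 3 or more KrasT libraries, or 2 or more for MycT and the joint fit, were tested on log2(FPKM + 1) with limma 3.58.1 and R 4.3.3 (moderated two-sided test with a spread trend, Benjamini-Hochberg adjustment over all genes kept, called under 0.05). Differences between models were the interaction term of the joint fit. The steps were tested on simulated data. The members and all lists were chosen with earlier results of these data known. The text names all members, all genes of 5 pathway lists (not all with values), the leading genes of marker lists and the 3 genes most like each member among genes kept in both tables with a group mean of at least 5 FPKM. Alternatives were another pseudocount, other filters, scalings and spread estimates, library weights, the joint fit and leaving out libraries. Fitting the difference without 2 libraries that stood apart, and rescaling the sums, were added after seeing the data. So was leaving Spp1 out of the summed ductal and tumour epithelium markers. Python 3.11.15 with matplotlib 3.10.9 drew the figures.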

Additional observations from a re-analysis of the deposited data

How the results depend on the processing

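In KrasT, of the 9 alternatives that kept all libraries, Igfbp5 was called in 8, Igfbp6 in 9 and Igfbp7 in 8. The joint fit ended the calls of Igfbp5 (limma adjusted p = 0.0501) and Igfbp7 (0.101). Their log2 changes stayed the same, while the SE went from 0.36 to 0.81 for Igfbp5 and from 0.35 to 0.71 for Igfbp7. The part of single libraries in that spread was not tested. Leaving out the KrasT library with Rn45s above 10000 FPKM is the same fit as without doxycycline replicate 1. Igfbp4 passed under quantile normalization (log2 change 1.44, limma adjusted p = 0.0290, 4.4% of genes called higher) and with library weights (1.04), with which Igfbp3 passed too (-0.88, limma adjusted p = 0.0498), where 21.6% of genes were called higher and 25.2% lower. No KrasT member changed direction under any alternative run. In MycT the direction turned for Igfbp3 without untreated replicate 2 (leave-one-out range -0.37 to 2.45) and for Igfbp5 without the unnumbered library (-1.08 to 2.73). The difference between models turned for Igfbp7 without untreated MycT replicate 2 (-0.75 to 2.50), for Igfbp7 without that library and untreated KrasT replicate 1 (-0.996), and for Igfbp6 without the unnumbered library (0.63, against -1.90 without replicate 2 and -2.53 without replicate 2 and untreated KrasT replicate 1). The summed FPKM stayed within 1 SD under median-ratio scaling in all 4 groups.

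Counts of called genes moved more. Fits without a MycT library kept 1 tumour in that group, so their counts rest on the spread of the other groups. From 2121 in KrasT the count went to 1340 at a mean FPKM of at least 5, 1078 under quantile normalization, 5935 with library weights, 1004 without the library of high Rn45s, and 113 to 4223 on leaving out 1 library. From 5 in MycT it went to 0 with no filter, 10 at a mean FPKM of at least 5, 10 with library weights, 2498 in the joint fit and 0 without the library of high Rn45s or any other single library. For the difference, 108 genes became 24 at a pseudocount of 0.1, 69 at a mean of at least 5, 1535 with library weights, 1 without both libraries of high Rn45s, 1281 without both libraries that stood apart and 4 to 1651 on leaving out 1 library. Of the 108, 68 were higher and 40 lower, and under median-ratio scaling 72 and 64. No paired analysis was possible because animal numbers in the labels differ for all tumours and link no groups. Igfbp1 reached 1 FPKM in 0 KrasT libraries and 1 MycT library, too few to be tested, and the read depth is unknown.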

Other observations

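The family also took different shares of all FPKM. The 7 genes together made up 0.118% to 0.222% of all FPKM in untreated KrasT libraries and 0.358% to 0.468% in treated ones. In MycT they made up 0.0410% and 0.0439% untreated and 0.174% and 0.260% treated. Total FPKM itself was 789672 to 1018970 in untreated and 513949 to 569272 in treated KrasT libraries. In MycT it was 1126800 and 1517330 untreated and 557227 and 546008 treated. The part of these totals in the shares was not tested.

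The promoter windows not printed differed as well. Igfbp4 held TATAAA at bases -28 to -23 before its start (12.3% of windows held it), and Igfbp1 held the insulin response core CAAAACA at -108 to -102 (5.60% of windows). A further Igfbp2 window, of a downstream start, held TGAGTCA, a form of TGANTCA (6.73% of windows).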
